A study of Mus musculus with 12 samples.

Results

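Messenger RNA of naive CD4+ T cells was compared between mice lacking Rinl (KO) and wild-type (WT) mice. The comparison rests on 6 of the 12 libraries of the series: the 3 whose labels give naive cells and the KO genotype, against the 3 that give naive cells and the WT genotype. Cells were sorted from spleen and peripheral lymph nodes as CD44-low, among other surface markers, the phenotype of T cells that have not met antigen. The other 6 libraries are CD44-high effector cells of both genotypes and are used below only where stated. Strain, age and sex of the mice, the part of Rinl that was altered, and whether Rinl was removed in T cells alone or in the whole animal were not stated in the labels used. Libraries carry their column numbers: WT naive 1 to 3 and KO naive 7 to 9, with WT effector 4 to 6 and KO effector 10 to 12. The labels do not state whether each library came from its own mouse, and p-values therefore reflect only library-to-library spread, which may be technical.

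Rinl belongs to the RIN family, whose members load GTP onto RAB5-type small GTPases. RAB5 proteins steer newly internalised membrane, and the receptors in it, to early endosomes. A naive T cell is kept alive by interleukin-7 and by weak contacts of its antigen receptor. It leaves lymph nodes along a sphingosine-1-phosphate gradient, and FOXO transcription factors maintain the genes for this survival and traffic programme while PI3K and AKT signalling is low. Interferons act on the same cells through transcription factors that switch on antiviral genes and genes of antigen presentation.

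Sequencing was deeper in KO: totals were 19584111, 19050952 and 12409965 counts in WT naive libraries 1 to 3 and 23935543, 24320247 and 20072199 in KO naive libraries 7 to 9, so every KO library exceeded every WT library. Levels are CPM with TMM scaling and compare libraries for 1 gene, not genes with each other. Changes are log2 fold changes of KO against WT ± SE from edgeR's quasi-likelihood fit, and a gene is called changed at a Benjamini-Hochberg adjusted p under 0.05 over all genes tested. The labelled identity held in every library: Cd4 lay between 982 and 1030 CPM and Cd44 between 17.1 and 21.1 CPM. Both Xist and Y-linked genes were counted in all 6 naive libraries, with Xist at 445, 352 and 275 CPM in WT and 150, 333 and 305 CPM in KO. Xist was lowest in KO library 7, and edgeR called no member of that marker list, with 0 at an unadjusted p under 0.05.

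Rinl stood at 298, 299 and 285 CPM in the WT libraries and at 32.6, 32.2 and 34.4 CPM in the KO libraries (log2 fold change -3.16 ± 0.05, edgeR adjusted p = 4.3e-23). Of 15905 genes tested, 187 changed, or 1.18%. Within 5 Mb of Rinl on chromosome 7, 20 of 196 genes were called (10.2%), among them a rise of the F-box gene Fbxo17 by 2.89 ± 0.07. These neighbours are set aside from here on. Across the rest of the genome 167 of 15709 genes changed (1.06%), 99 of them higher in KO (0.63%) and 68 lower (0.433%). In each of the 167 the KO and WT libraries did not overlap. A call with 3 libraries per group nearly entails this, so it adds no support for a called gene. Of all genes tested, 20.5% had no overlap. At an unadjusted p under 0.05 the count over all genes was 1885, or 11.9%.

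Most of these changes were small. Of the 167 genes, 43 differed by less than 1.2-fold, 81 by 1.2 to 1.4-fold, 20 by 1.4 to 2-fold and 23 by 2-fold or more. Of those 23, only 3 reached 5 CPM in the higher group. The changes were spread over the genome: every autosome held at least 1, from 0.26% of those tested on chromosome 18 to 1.98% on chromosome 12. Among genes with a mean of 50 CPM or more, 47 rose and 30 fell with a median size of 0.26 on the log2 scale. Among genes with a mean under 1 CPM, 14 rose and 1 fell. Protein-coding genes made up 137 of the 167, and all 5 long noncoding RNAs called were lower. The median gene model of lower genes was 3644 bases long, against 2566 bases for higher genes and 2656 bases for all genes tested.

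**Figure D1:**
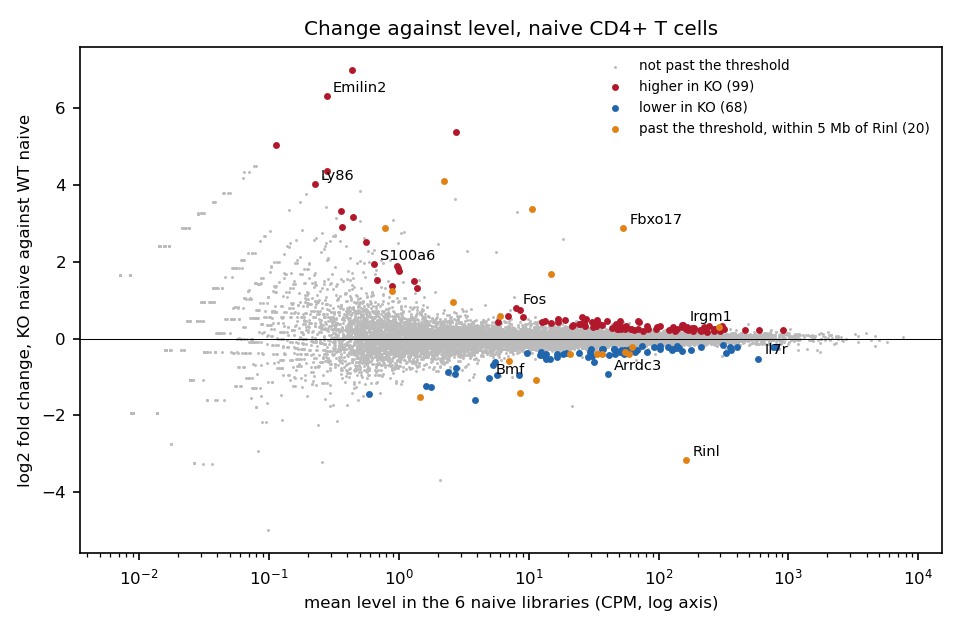
Mean level of each tested gene in the 6 naive libraries (CPM, log axis) against its log2 fold change in KO, with called genes coloured. The 99 higher and 68 lower genes outside the Rinl neighbourhood lie close to 0 above about 5 CPM, and the large rises among them lie at low levels.

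Genes induced by type I interferon were the list with the most members higher, although the GBP and IRG list below had a larger share and median. This list and those below were chosen with earlier results of these data known. Their counts are a description and give no independent support. Of 45 tested interferon-induced members, 19 rose and none fell, where 0.679% of all genes tested rose. The median log2 fold change was 0.22 (0 over all genes), all 45 were above 0, with the smallest at 0.03, and in 41 every KO library exceeded every WT library, as in 10.7% of all genes. Fold changes were small and ran up to 0.75 for Mx1, a gene of an antiviral GTPase. Its gene model is annotated as a polymorphic pseudogene, and whether these mice carry a working copy was not stated. Mx1 stood at 5.63, 7.95 and 5.64 CPM in WT and 9.33, 11.9 and 11.5 CPM in KO (0.75 ± 0.15, edgeR adjusted p = 0.024). WT library 2 was the highest of the WT libraries for Mx1 and still below every KO library.

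Ifit1, which binds viral RNA lacking a host-type cap, stood at 52.7, 62.5 and 60.0 CPM in WT and 72.0, 82.9 and 86.1 CPM in KO (0.46 ± 0.07, edgeR adjusted p = 7.7e-04). Oasl2, a member of the oligoadenylate synthetase family, went from 27.0, 28.9 and 27.4 CPM to 39.4, 37.1 and 40.4 CPM (0.48 ± 0.07, edgeR adjusted p = 7.9e-04). Zbp1, a sensor of left-handed nucleic acid, went from 175, 167 and 168 CPM to 209, 212 and 193 CPM (0.27 ± 0.04, edgeR adjusted p = 0.0019). For these genes the groups were separated by a gap in every case. The ubiquitin-like modifier Isg15 rose by 0.55 ± 0.12 and Usp18, the protease that removes it, by 0.46 ± 0.09. Oas3, an oligoadenylate synthetase (0.31 ± 0.06), Ifit3b (0.50 ± 0.11) and Slfn8 (0.20 ± 0.05) also rose. Reads shared with related family members make the single values of Ifit3b and Slfn8 uncertain.

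The count of called interferon genes depended on single libraries. It was 8 without WT library 1, 8 without WT library 3, 6 without KO library 8 and 4 without KO library 9. It was 19 without KO library 7 and 13 without WT library 2, 29 in a fit of the 6 naive libraries alone and 3 in each fit of log2 FPKM.

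The immunity-related GTPases (IRG) and guanylate-binding proteins (GBP), which attack the vacuoles of intracellular pathogens, had 7 members that rose. Of 15 tested, 7 rose and none fell, where 0.679% of all genes tested rose. The median log2 fold change was 0.32. In all 15 every KO library exceeded every WT library, as in 10.7% of all genes. Irgm1, an IRG member that regulates the others, had the smallest p outside the Rinl neighbourhood, at 136, 138 and 133 CPM in WT and 174, 178 and 172 CPM in KO (0.36 ± 0.04, edgeR adjusted p = 1.8e-05). Igtp, another IRG GTPase, stood at 221, 213 and 217 CPM in WT and 269, 285 and 258 CPM in KO (0.32 ± 0.05, edgeR adjusted p = 7.7e-04). For both genes the lowest KO library lay above the highest WT library. Irgm2 rose by 0.29 ± 0.05, Gbp3 by 0.49 ± 0.10 and Gbp5 by 0.33 ± 0.07. Gbp10, a GBP gene outside the list, went from 31.6, 34.7 and 35.9 CPM to 46.9, 47.6 and 44.7 CPM (0.45 ± 0.06, edgeR adjusted p = 9.9e-05). GBP and IRG genes lie in clusters of close copies, so reads could be split between neighbours. The 7 calls became 3 without WT library 2, without KO library 8 or in each FPKM fit, 11 with no filter and 12 in the fit of naive libraries alone.

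Promoter windows of these genes are shown because they share a short sequence. The windows run from 250 bases before to 50 bases after a transcript start, 5′ to 3′ on the gene's strand, from RefSeq on GRCm38.p6. Capitals mark the core of the interferon-stimulated response element, GAAANNGAA on either strand, with overlapping matches joined. The first of 2 matches in Irgm1 begins 30 bases before the start and that in Igtp 34 bases before it. Ifit1 holds 3 matches and Isg15 holds 3, beginning 109 and 78 bases before the start.
Irgm1 (chr11:48871371-48871670, minus strand): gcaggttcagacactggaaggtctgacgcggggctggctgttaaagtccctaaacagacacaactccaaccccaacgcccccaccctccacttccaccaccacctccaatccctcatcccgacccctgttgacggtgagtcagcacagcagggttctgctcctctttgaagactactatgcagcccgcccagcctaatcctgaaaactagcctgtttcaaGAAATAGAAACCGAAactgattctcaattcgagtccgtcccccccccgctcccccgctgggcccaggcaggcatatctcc
Igtp (chr11:58199306-58199605, plus strand): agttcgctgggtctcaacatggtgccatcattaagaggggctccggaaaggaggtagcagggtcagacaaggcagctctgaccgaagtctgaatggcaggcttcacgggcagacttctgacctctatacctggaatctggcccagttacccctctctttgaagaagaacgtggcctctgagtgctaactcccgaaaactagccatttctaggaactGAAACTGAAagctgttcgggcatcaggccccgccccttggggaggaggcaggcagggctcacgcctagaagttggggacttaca
Ifit1 (chr19:34640639-34640938, plus strand): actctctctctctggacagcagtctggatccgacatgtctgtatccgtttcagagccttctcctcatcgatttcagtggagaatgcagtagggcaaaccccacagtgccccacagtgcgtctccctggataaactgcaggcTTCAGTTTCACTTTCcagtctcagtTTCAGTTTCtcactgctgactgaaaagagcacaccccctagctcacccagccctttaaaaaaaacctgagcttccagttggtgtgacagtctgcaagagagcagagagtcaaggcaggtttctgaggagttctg
Isg15 (chr4:156200769-156201068, minus strand): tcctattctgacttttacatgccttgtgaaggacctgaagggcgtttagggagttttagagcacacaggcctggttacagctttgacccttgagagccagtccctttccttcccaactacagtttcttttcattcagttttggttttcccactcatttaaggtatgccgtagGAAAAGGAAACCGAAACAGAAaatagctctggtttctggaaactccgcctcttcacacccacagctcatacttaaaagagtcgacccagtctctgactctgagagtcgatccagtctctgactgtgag

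Of 9726 tested genes outside the neighbourhood with a RefSeq window, 8.75% held this core. Of the 99 higher genes 58 had a window and 21 of these held it, or 36.2%. Of the 68 lower genes 53 had a window and 4 held it, or 7.55%. All 7 called GBP and IRG genes held it, as did 9 of the 9 members of that list with a window. In the type I interferon list 21 of 35 members with a window held it (60%), and 7 of the 12 called higher (58.3%). The number of windows per gene was similar, 1.27 over all genes, 1.33 over higher and 1.4 over lower genes. A match is a description of the letters, not of a bound factor.

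Genes of class I antigen presentation held fewer calls. Of 21, 3 rose and none fell (median 0.14), where 0.679% of all genes tested rose. At an unadjusted p under 0.05, 14 were higher, against 11.9% of all genes in either direction. In 16 every KO library exceeded every WT library, as in 10.7% of all genes. The 3 were Nlrc5, the transcriptional activator of class I genes, which went from 590, 524 and 527 CPM to 635, 644 and 631 CPM (0.22 ± 0.05, edgeR adjusted p = 0.042), H2-T22 (0.20 ± 0.04) and H2-Q7 (0.22 ± 0.05). H2-T22 and H2-Q7 are nonclassical class I genes with near-identical relatives, so their single values are uncertain. DESeq2 called 10 of the 21 higher, as did the fit of naive libraries alone, no filter gave 8 and the FPKM fits 0. The count became 1 without WT library 2, 0 without WT library 3 or any 1 KO library, and 5 without WT library 1.

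Genes of the NF-kB pathway rose in a few members. Of 24 tested, 4 were higher and none lower (median 0.11), where 0.679% of all genes tested rose. At an unadjusted p under 0.05, 12 were higher, against 11.9% of all genes in either direction. In 13 every KO library exceeded every WT library, as in 10.7% of all genes. Nfkb2, the precursor of the p52 subunit, stood at 77.7, 65.5 and 73.2 CPM in WT and 96.5, 90.1 and 83.7 CPM in KO (0.32 ± 0.06, edgeR adjusted p = 0.0063). Its partner Relb (0.30 ± 0.07), the adhesion molecule Icam1 (0.30 ± 0.06) and the inhibitor Tnfaip3 (0.24 ± 0.06) rose too. Without WT library 2 none of the 4 was called, without KO library 8 only Nfkb2 was, and without WT library 1 or KO library 7 Nfkb2 and Icam1 were. DESeq2 called 7 genes of the list higher, no filter 8, the fit of naive libraries alone 9 and thinned counts 1, and log2(FPKM + 1) and log2(FPKM + 0.1) called 0 and 1. Ly6a, the interferon-inducible surface antigen Sca-1, rose by 0.27 ± 0.06.

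**Figure D2:**
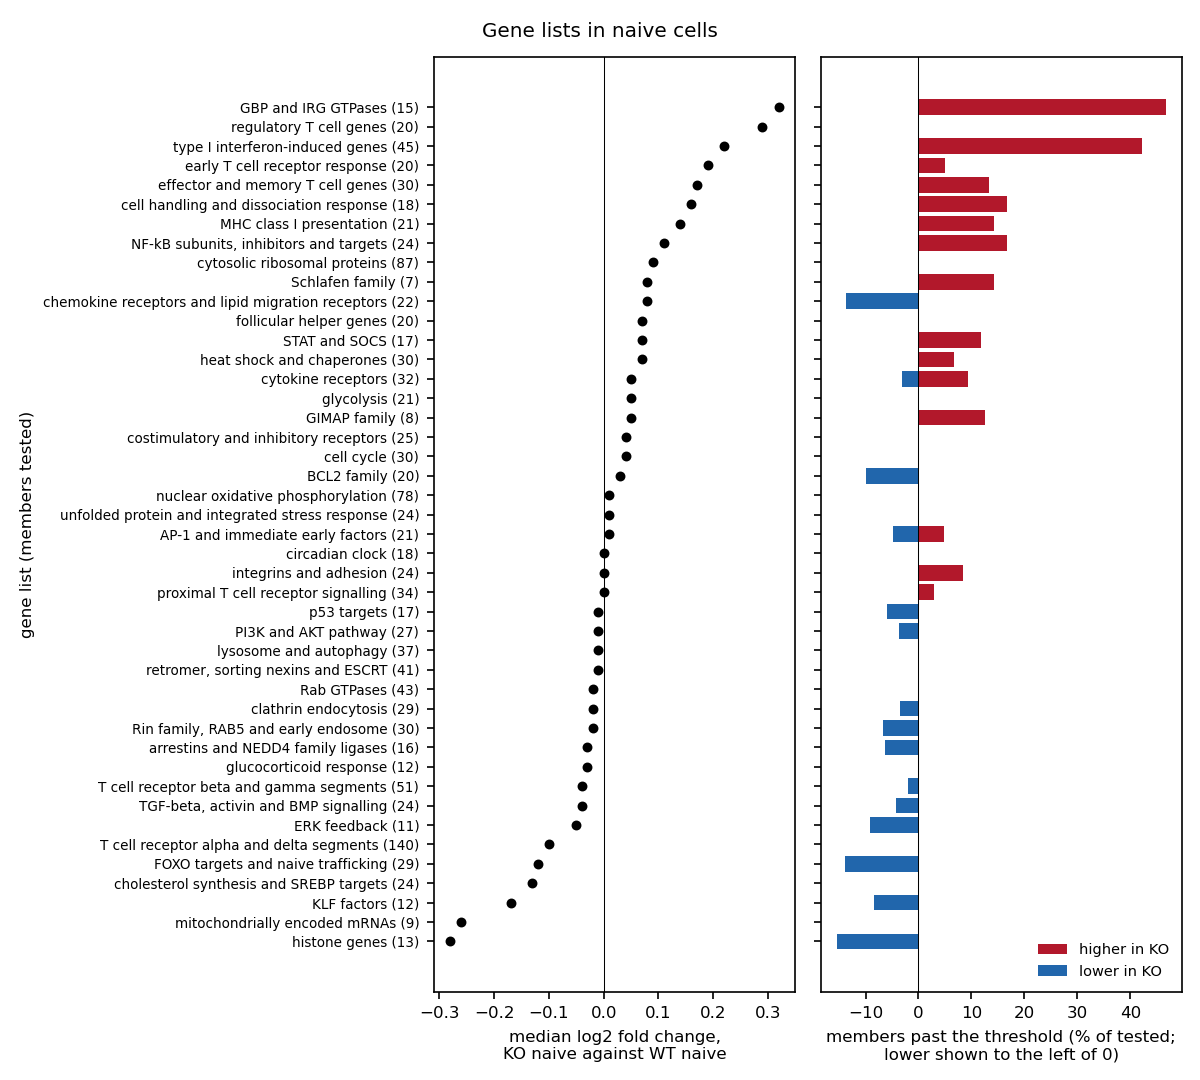
Median log2 fold change of each gene list in naive cells (left) and the percentage of its tested members called higher or lower in KO (right); the number tested stands in brackets, and the immunoglobulin list is left out. The GBP and IRG and the interferon lists have the largest shares of higher members.

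A few receptors and factors that keep naive T cells circulating were lower. Of 29 tested FOXO targets and naive trafficking genes, 4 fell and none rose, where 0.497% of all genes tested fell, the median was -0.12, and 25 of 29 were below 0. In 13 every KO library lay below every WT library, as in 9.72% of all genes. Il7r, the receptor chain for interleukin-7, stood at 740, 595 and 724 CPM in WT and 462, 494 and 480 CPM in KO (-0.52 ± 0.10, edgeR adjusted p = 0.025). WT library 2 was the lowest of the WT libraries, still above every KO library, and Il7r lost its call when any single naive library other than WT 2 was left out. S1pr1, the sphingosine-1-phosphate receptor for lymph node exit, stood at 828, 827 and 794 CPM in WT and 706, 706 and 690 CPM in KO (-0.22 ± 0.04, edgeR adjusted p = 0.0051). Foxp1, a transcription factor of T cell quiescence, fell by 0.22 ± 0.04 on the log2 scale, and Pik3ip1, an inhibitor of PI3K, by 0.23 ± 0.04. In all 4 genes the groups did not overlap, but the number called in the list became 1 without WT library 3, KO library 8 or KO library 9, and 2 without WT library 1, WT library 2 or KO library 7. It was 1 in each FPKM fit, 6 lower genes with DESeq2, 7 with no filter and 10 in the fit of naive libraries alone.

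Most of the naive T cell markers did not pass the test. Tcf7, a transcription factor of naive T cells, had a log2 fold change of -0.12 (edgeR adjusted p = 0.29). The 10 naive T cell markers summed to 9160, 9270 and 9420 CPM in WT and 8580, 8750 and 8290 CPM in KO, and all 10 had values below 0. Il7r and S1pr1 are the 2 of these 10 that were called and are part of the sums. In bulk libraries fewer cells of a type and less RNA per cell cannot be told apart.

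Migration receptors followed the same direction in 3 members. Of 22 chemokine and lipid migration receptors tested, 3 fell and none rose, where 0.497% of all genes tested fell. The median over the list was nevertheless 0.08. Besides S1pr1 these were Gpr183, the oxysterol receptor that positions lymphocytes, from 105, 121 and 113 CPM to 94.9, 94.6 and 92.6 CPM (-0.26 ± 0.06, edgeR adjusted p = 0.031), and Lpar6, a lysophosphatidic acid receptor (-0.31 ± 0.06, edgeR adjusted p = 0.0095). Without WT library 2 none of the 3 was called, and without WT library 3 or any 1 KO library 1 was.

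Among genes with a name and at least 5 CPM, the largest falls were in single genes of several pathways. Arrdc3, an alpha-arrestin that links receptors to NEDD4-type ubiquitin ligases, stood at 51.5, 57.8 and 50.3 CPM in WT and 31.9, 25.3 and 27.6 CPM in KO (-0.92 ± 0.10, edgeR adjusted p = 5.4e-04). It was the only called member of 16 arrestins and NEDD4 family genes, where 1.18% of all genes tested were called. Bmf, a BH3-only protein that promotes cell death, went from 6.63, 7.52 and 5.80 CPM to 3.11, 3.02 and 3.84 CPM (-1.02 ± 0.17, edgeR adjusted p = 0.0016). A second BH3-only gene, Bbc3 or Puma, went from 17.0, 14.3 and 17.2 CPM to 11.8, 11.5 and 10.1 CPM (-0.53 ± 0.12, edgeR adjusted p = 0.030). The other 18 of 20 tested BCL2 family genes were not called and the family's median was 0.03. Over all genes tested 0.497% were called lower. Bbc3 lost its call without WT library 1 or 3 or any 1 KO library.

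Ston1, an adaptor of clathrin-coated vesicles, stood at 7.84, 5.80 and 9.20 CPM in WT and 4.02, 4 and 3.53 CPM in KO (-0.96 ± 0.15, edgeR adjusted p = 0.0015). Tmem267, a transmembrane protein gene, went from 10.3, 11.9 and 10.9 CPM to 5.61, 6.46 and 4.92 CPM (-0.96 ± 0.14, edgeR adjusted p = 7.5e-04). Both genes had every KO library below every WT library. Acvr2a, an activin receptor, fell by 0.70 ± 0.13 on the log2 scale and was not called without WT library 2. It was the only called gene of 24 in TGF-beta, activin and BMP signalling, where 1.18% of all genes tested were called. Nacc2, a BTB-domain transcriptional repressor, went from 37.6, 37.9 and 41.5 CPM to 24.8, 27.3 and 23.6 CPM (-0.62 ± 0.09, edgeR adjusted p = 7.7e-04). Gnal, a G protein alpha subunit (-0.61 ± 0.14), and the unconventional myosin Myo10 (-0.41 ± 0.08) were lower too.

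Smaller falls at higher levels were precise. Selenop, a selenium transport protein, stood at 377, 415 and 407 CPM in WT and 308, 333 and 327 CPM in KO (-0.31 ± 0.05, edgeR adjusted p = 7.7e-04). Tent5a, a poly(A) polymerase, stood at 90.7, 92.3 and 90.1 CPM in WT and 73.1, 70.1 and 70.2 CPM in KO (-0.36 ± 0.05, edgeR adjusted p = 7.5e-04). H3f3b, which encodes the replication-independent histone H3.3, stood at 370, 392 and 358 CPM in WT and 305, 275 and 286 CPM in KO (-0.37 ± 0.05, edgeR adjusted p = 6.1e-04). For H3f3b, whose processed copies in the genome could share its reads, the value is uncertain. In the list of histone genes 2 of 13 tested were lower and none higher, where 0.497% of all genes tested fell. The 2 were the linker histone H1f0 (-0.47 ± 0.09) and H2bc21 (-0.39 ± 0.09). Neither was called without KO library 8 or 9, or without WT library 2.

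The letters searched as the FOXO motif were more frequent in promoters of lower genes. Here too a match describes letters, not a bound factor, FOXO or other. The letters GTAAACA, on either strand, stood in 3.14% of the 9726 genes with a window, in 8 of 53 lower genes (15.1%) and in 2 of 58 higher genes (3.45%). The 8 were Bbc3, Dhx40, Frat1, Hbp1, Pcsk1, Pim1, Rnf26 and Selenop. The windows of 3 of them are shown in the same format, with capitals on these letters. The match begins 24 bases before the start in Selenop, 149 in Hbp1 and 167 in Bbc3. The called members of the FOXO list are not among the 8.
Selenop (chr15:3270727-3271026, plus strand): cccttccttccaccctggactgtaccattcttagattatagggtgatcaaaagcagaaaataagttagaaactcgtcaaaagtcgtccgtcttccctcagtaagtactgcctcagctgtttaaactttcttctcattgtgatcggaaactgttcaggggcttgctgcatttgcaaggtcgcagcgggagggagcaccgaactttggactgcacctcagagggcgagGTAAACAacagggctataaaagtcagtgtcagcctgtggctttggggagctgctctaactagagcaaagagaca
Hbp1 (chr12:31950196-31950495, minus strand): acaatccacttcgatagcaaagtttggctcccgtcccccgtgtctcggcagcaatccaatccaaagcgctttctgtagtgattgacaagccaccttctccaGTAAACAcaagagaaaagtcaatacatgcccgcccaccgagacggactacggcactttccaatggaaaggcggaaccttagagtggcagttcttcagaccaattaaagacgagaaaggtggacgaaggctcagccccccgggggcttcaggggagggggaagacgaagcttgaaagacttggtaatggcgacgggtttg
Bbc3 (chr7:16310011-16310310, plus strand): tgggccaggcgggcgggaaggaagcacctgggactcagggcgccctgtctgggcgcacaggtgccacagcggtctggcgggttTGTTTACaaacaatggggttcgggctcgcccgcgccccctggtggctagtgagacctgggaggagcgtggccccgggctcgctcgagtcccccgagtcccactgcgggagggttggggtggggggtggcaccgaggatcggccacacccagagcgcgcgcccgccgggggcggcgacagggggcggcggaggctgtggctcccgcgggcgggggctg

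Hbp1, a transcriptional repressor that restrains cell cycle entry, went from 107, 110 and 113 CPM to 95.6, 96.2 and 93.7 CPM (-0.20 ± 0.05, edgeR adjusted p = 0.020). Frat1, a GSK3-binding protein of the Wnt pathway, fell by 0.39 ± 0.09 on the log2 scale, and Pcsk1, a proprotein convertase at 0.893 to 2.58 CPM, by 1.23 ± 0.23. For the other motifs searched, the shares in all, higher and lower genes were 5.9%, 13.8% and 7.55% for AP-1 (TGANTCA), 6.83%, 15.5% and 9.43% for the heat shock element core (GAANNTTC) and 3.55%, 0% and 1.89% for CRE (TGACGTCA). They were 12.1%, 15.5% and 15.1% for NF-kB and 1.63%, 1.72% and 3.77% for the CArG box. The interferon core and the heat shock core can overlap.

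Cytokine signalling genes changed in both directions. Cish, an inhibitor induced by STAT5, stood at 25.1, 26.4 and 26.9 CPM in WT and 33.5, 33.3 and 39.0 CPM in KO (0.43 ± 0.07, edgeR adjusted p = 0.0017). Of 17 STAT and SOCS family members 2 were called, both higher, where 0.679% of all genes tested rose. Cish stayed called when any 1 naive library was left out. Of 32 cytokine receptor genes, 3 rose and Il7r fell, where 0.679% of all genes tested rose and 0.497% fell. Il2rb, the beta chain shared by the interleukin-2 and interleukin-15 receptors, stood at 84.2, 83.0 and 95.9 CPM in WT and 102, 110 and 110 CPM in KO (0.30 ± 0.06, edgeR adjusted p = 0.011). Il12rb1, a chain of the interleukin-12 receptor, rose by 0.43 ± 0.11 and Csf2rb, the common beta chain of the GM-CSF receptor, rose at under 1 CPM. None of the 3 was called without WT library 1 or without WT library 2, and 1 was without KO library 7 or 8.

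Antigen receptor signalling genes held single calls, where 1.18% of all genes tested were called. Of 34 proximal genes 1 rose and none fell, with a median of 0: the early activation marker Cd69, at 56.6, 54.6 and 58.3 CPM in WT and 59.7, 71.5 and 70.8 CPM in KO (0.25 ± 0.06, edgeR adjusted p = 0.038). KO library 7 lay just above the WT libraries, and Cd69 lost its call when any single library other than KO 7 was left out. Cd69 was also the only call among 20 genes of the early T cell receptor response, whose median was 0.19. Of these 15 lay above 0, and 10 were higher at an unadjusted p under 0.05, against 11.9% of all genes in either direction. In 11 every KO library exceeded every WT library, as in 10.7% of all genes. DESeq2 called 2 of the 20 higher, limma-voom 0, no filter 7 and the fit of naive libraries alone 6. Dusp6, a phosphatase that dampens ERK, fell by 0.35 ± 0.08 on the log2 scale and was the only called gene of 11 in ERK feedback. It was called without WT library 2 but not without any other single naive library. Of 21 AP-1 and immediate early genes, Fos rose and Klf6 fell. Fos stood at 4.42, 5.75 and 7.79 CPM in WT and 8.55, 11 and 10.9 CPM in KO (0.80 ± 0.15, edgeR adjusted p = 0.0098), and lost its call without WT library 1 or 2 or KO library 8 or 9. Klf6, a zinc finger factor, stood at 190, 198 and 201 CPM in WT and 155, 160 and 159 CPM in KO (-0.31 ± 0.05, edgeR adjusted p = 7.7e-04).

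Fos also belongs to the 18 tested genes of the response to cell handling and dissociation. Of these 3 rose and none fell (median 0.16), where 0.679% of all genes tested rose. The other two were the co-chaperones Dnajb1, at 86.3, 92.3 and 93.4 CPM in WT and 106, 120 and 113 CPM in KO (0.32 ± 0.06, edgeR adjusted p = 0.0045), and Dnaja1 (0.29 ± 0.05). The summed level of this list was 2450, 2540 and 2610 CPM in WT and 2670, 2830 and 2760 CPM in KO. Its part in the other rises was not tested. Without KO library 8, 1 of the 3 was called. Of 30 chaperone genes 26 lay above 0, and Dnajb1 and Dnaja1 were the 2 called.

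Several transcription factors rose on their own. Gfi1, a repressor that acts in lymphocyte differentiation, stood at 14.1, 12.8 and 14.7 CPM in WT and 20.1, 19.3 and 20.1 CPM in KO (0.52 ± 0.08, edgeR adjusted p = 0.0014). Rarg, a retinoic acid receptor, stood at 60.4, 54.4 and 68.0 CPM in WT and 82.2, 83.4 and 77.5 CPM in KO (0.42 ± 0.07, edgeR adjusted p = 0.0014). Hopx, a homeodomain-only protein, rose by 0.44 ± 0.09. Syne3, a nuclear envelope linker, rose by 0.46 ± 0.08 and Gimap7, a GTPase of lymphocyte survival, by 0.24 ± 0.05. Foxp3, which defines regulatory T cells, stood at 45.4, 49.6 and 50.7 CPM in WT and 59.5, 55.4 and 60.1 CPM in KO, with a log2 fold change of 0.27 ± 0.08 (edgeR adjusted p = 0.15). None of the 20 regulatory T cell genes was called in the main edgeR fit, where 7 had an unadjusted p under 0.05, all higher. DESeq2 called 3, limma-voom 0 and the edgeR fit of naive libraries alone 7. Their median was 0.29, and in 13 every KO library lay above every WT library. Over all genes tested that held in 10.7%, and 11.9% had an unadjusted p under 0.05.

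Genes of early endosomes, where RIN proteins act, held single calls. Over all genes tested 1.18% were called, so few or no calls in lists of this size say little about them. Besides Rinl itself, 1 of the other 29 tested genes of the RIN family, RAB5 and early endosome list was called: Appl2, a RAB5 effector, fell from 64.6, 60.0 and 54.6 CPM to 48.8, 52.0 and 46.5 CPM (-0.29 ± 0.06, edgeR adjusted p = 0.022). It lost its call without WT library 1 or 2 or KO library 7 or 9. Of 29 clathrin endocytosis genes Ston1 was the only one called. None of 43 Rab GTPase genes, 41 genes of retromer, sorting nexins and ESCRT and 37 lysosome and autophagy genes was called by edgeR, DESeq2 or limma-voom; 3, 4 and 1 had an unadjusted p under 0.05 in edgeR, and the medians were -0.02, -0.01 and -0.01.

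In other lists the main edgeR fit called no gene, where it called 1.18% of all genes tested. Cytosolic ribosomal protein genes had values above 0 in 79 of 87, with a median of 0.09. In 46 every KO library exceeded every WT library, as in 10.7% of all genes. At an unadjusted p under 0.05 there were 27, against 11.9% of all genes tested. DESeq2 called 1 of them, limma-voom 0 and the edgeR fit of naive libraries alone 12. The 9 tested mitochondrially encoded mRNAs all lay below 0 (median -0.26), and their summed level was 16000, 13900 and 16200 CPM in WT and 13500, 14000 and 14400 CPM in KO, so that the groups overlapped. At an unadjusted p under 0.05 there were 3, and DESeq2, limma-voom and the fit of naive libraries alone called 1 each. Of 24 cholesterol synthesis genes 22 lay below 0, with a median of -0.13, and 11 had an unadjusted p under 0.05, all lower. Neither other tool called any, and the fit of naive libraries alone called 3. Nuclear oxidative phosphorylation genes (78 tested, median 0.01), glycolysis genes (21, median 0.05), cell cycle genes (30, median 0.04), unfolded protein response genes (24, median 0.01) and circadian clock genes (18, median 0) also had none called by edgeR, with 1, 2, 3, 1 and 1 at an unadjusted p under 0.05. Costimulatory and inhibitory receptors (25, median 0.04) and follicular helper genes (20, median 0.07) had none either, with 7 and 4 at an unadjusted p under 0.05. DESeq2 called 1 gene each in the cell cycle, costimulatory and follicular helper lists, none in the other 4, and limma-voom none in any of the 7. The fit of naive libraries alone called 4 costimulatory, 2 follicular helper and 1 glycolysis gene, and none in the rest of the 7.

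Antigen receptor segments held 1 call among T cell receptor genes, where 1.18% of all genes tested were called. None of 140 alpha and delta genes was called by edgeR, DESeq2 or limma-voom, with 4 at an unadjusted p under 0.05, and of 51 beta and gamma genes 1 fell. Trbv3, a beta chain variable segment, stood at 43.4, 48.2 and 51.2 CPM in WT and 35.0, 38.6 and 32.5 CPM in KO (-0.42 ± 0.07, edgeR adjusted p = 0.0045). Trbc2, a constant segment, had a log2 fold change of -0.04.

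**Figure D3:**
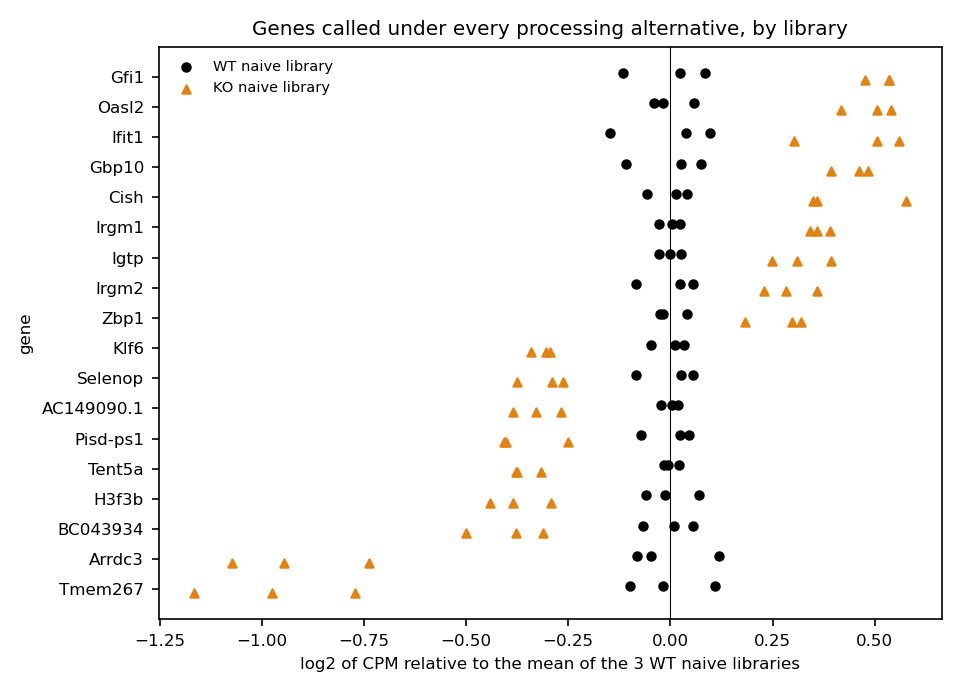
Level of each of the 18 genes called under all 15 processing alternatives, as log2 of CPM relative to the mean of the WT naive libraries, for each of the 6 naive libraries. The KO libraries lie above all WT libraries for 9 genes and below them for 9.

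Which genes passed depended on the libraries and the fit. Of the 167 genes outside the Rinl neighbourhood, 18 were called under every one of 15 alternatives. Higher were the interferon-related genes Gbp10, Ifit1, Igtp, Irgm1, Irgm2, Oasl2 and Zbp1, with Cish and Gfi1. Lower were Arrdc3, H3f3b, Klf6, Selenop, Tent5a and Tmem267, the pseudogene Pisd-ps1 and the gene models AC149090.1 and BC043934. The count of 167 became 59 without WT library 2, 52 without KO library 8 and 70 without KO library 9, and 109 and 108 without WT library 3 and KO library 7. The fit of the 6 naive libraries alone gave 498. With all naive libraries thinned to the smallest total, 136 were called, 87 higher and 49 lower.

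A separate group of rises lay at low levels. Of the 99 higher genes, 17 had under 5 CPM in both groups, with a median log2 fold change of 2.51. Emilin2, an extracellular matrix glycoprotein, had 0 counts in all WT libraries together and 37 in the KO libraries, at least 9.26-fold higher when WT is set at 3 counts over its group. Ly86, which pairs with a Toll-like receptor relative on B and myeloid cells, had 1 count in WT and 29 in KO (ratio 21.8, 95% interval 3.61 to 889, counting error only). Vipr2, a receptor for vasoactive intestinal peptide, had 0 and 15 counts, at least 3.75-fold higher. Csf2rb stood at 0.0526, 0.107 and 0.0829 CPM in WT and 0.734, 0.595 and 0.615 CPM in KO, and Napsa, an aspartic protease, at 0, 0.0537 and 0.249 CPM and 0.561, 0.850 and 0.973 CPM. In the thinned libraries Emilin2 kept its call and Csf2rb, Napsa and Vipr2 did not.

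Immunoglobulin genes were among these rises. Of 31 tested, 4 rose and none fell, where 0.679% of all genes tested rose. The median was 2.49, 27 lay above 0, and 19 were higher at an unadjusted p under 0.05. In 13 every KO library exceeded every WT library, as in 10.7% of all genes. DESeq2 called 4, limma-voom 7 and the fit of naive libraries alone 2. Only 31 of 395 passed the filter, which lets in genes with counts in 1 group alone, so these shares add no support. Of the 4, Ighg2c was not among the rises under 5 CPM, with a KO mean of 5.36 CPM. It was the only rise of 2-fold or more outside the Rinl neighbourhood to reach 5 CPM. Igkv8-27, a kappa variable segment, had 0 counts in WT and 60 in KO, at least 15-fold higher, at 1.47, 0.850 and 0.307 CPM in the KO libraries. Igkv6-15 had 3 and 44 counts (ratio 11, 95% interval 3.53 to 55.4) and Iglc3, a lambda constant segment, 1 and 37 (ratio 27.8, 95% interval 4.68 to 1130). Most counts of Iglc3 came from KO library 7, at 1.17 CPM against 0.213 and 0.256 CPM. Ighg2c, an IgG2c heavy chain segment, stood at 0.263, 0 and 0.0829 CPM in WT and 2.55, 5.44 and 8.09 CPM in KO. None of the 4 was called when any 1 WT naive library was left out. Only Ighg2c was without KO library 7, only Iglc3 without KO library 8, and Igkv8-27 and Iglc3 without KO library 9.

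**Figure D4:**
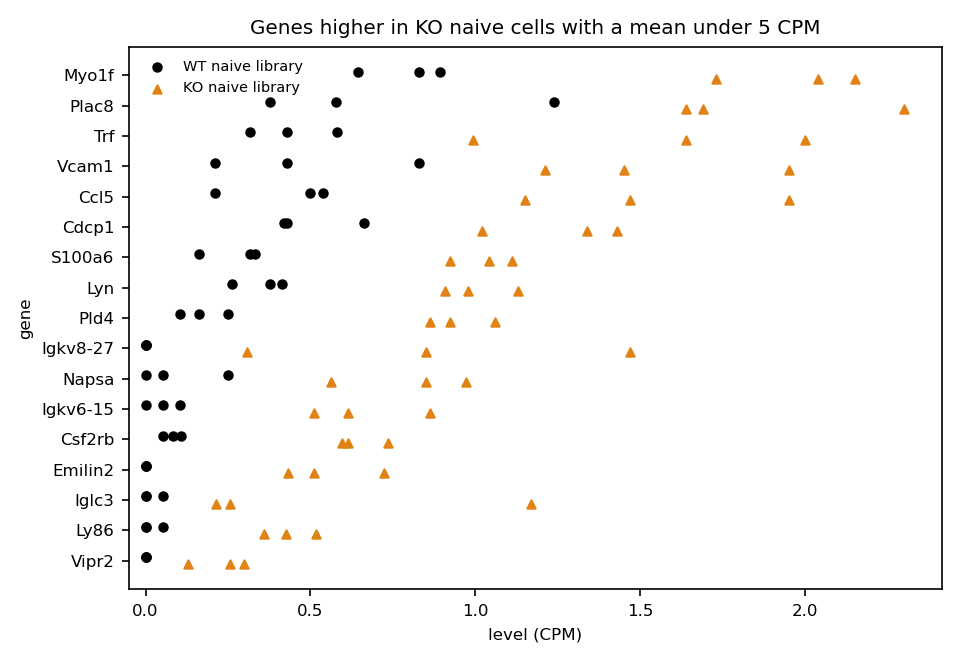
Level (CPM) in each naive library of the 17 genes higher in KO with under 5 CPM in both groups. KO libraries lie between 0.13 and 2.3 CPM and above every WT library of the same gene.

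Markers of other cell types were at low levels in the same libraries. Of 21 tested myeloid and dendritic cell markers the main edgeR fit called none, DESeq2 3, limma-voom 1 and the fit of naive libraries alone 4. In edgeR 8 had an unadjusted p under 0.05, all higher, against 11.9% of all genes in either direction. The median of these markers was 1.21. Their summed level was 37.9, 46.5 and 59.0 CPM in WT and 62.8, 87.9 and 70.0 CPM in KO, without overlap. Cd74, the invariant chain of class II molecules, stood at 4.26, 4.19 and 6.97 CPM in WT and at 8.68, 13 and 9.68 CPM in KO (edgeR adjusted p = 0.18), while Clec9a, Ly6g, Siglech and Xcr1, 4 markers of single myeloid types, were at 0 in all WT libraries and at 0 to 0.13 CPM in the KO libraries. Of 11 tested B cell markers none was called by these tools, 4 had an unadjusted p under 0.05, all higher, and the median was 0.77. Their sum of 595 to 625 CPM in WT and 547 to 598 CPM in KO was mostly Ighm. Markers of NK cells and of NKT and gamma-delta T cells summed to 28.6 to 32.6 CPM in WT and 27.6 to 31.2 CPM in KO, mostly from Klrd1, Trdc and Eomes. Of the 8 tested the main edgeR fit called none and the fit of naive libraries alone 1. The median was 1.73, and 3 were higher and 1 lower at an unadjusted p under 0.05. In 5 every KO library exceeded every WT library, as in 10.7% of all genes. Among the 5, Ncr1 stood at 0, 0.107 and 0.166 CPM in WT and 0.345, 0.553 and 0.410 CPM in KO. The CD8 markers summed to 19.5 to 20.8 and 19.8 to 21.8 CPM. Plasma cell markers summed to 54.2 to 56.9 CPM and 55.7 to 57.0 CPM, mostly from Xbp1 and Prdm1. Among them Jchain, the joining chain of secreted antibodies, stood at 0.789, 0.269 and 2.82 CPM in WT and 7.47, 4.85 and 3.84 CPM in KO (edgeR adjusted p = 0.15), and limma-voom called 1 of the 5 tested. Stromal and endothelial markers, mostly Pecam1, summed to 371 to 379 and 335 to 363 CPM. Erythroid and platelet markers summed to 10.6, 12.8 and 43.9 CPM in WT and 16.1, 12.7 and 10.3 CPM in KO, with WT library 3 apart. The part of these cells in the low-level rises was not tested.

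Genes of effector and memory T cells rose in 4 of 30, where 0.679% of all genes tested rose. None was lower, and the median of the list was 0.17. The 4 that rose were Il2rb and Hopx, and at low levels Ccl5, a chemokine stored by memory cells, and the calcium-binding protein S100a6. Ccl5 stood at 0.210, 0.537 and 0.498 CPM in WT and 1.47, 1.15 and 1.95 CPM in KO (1.88 ± 0.37, edgeR adjusted p = 0.016). S100a6 stood at 0.316, 0.161 and 0.332 CPM in WT and 1.04, 1.11 and 0.922 CPM in KO (1.94 ± 0.38, edgeR adjusted p = 0.0095). Myo1f, a class I myosin of leukocytes outside the list, went from 0.894, 0.645 and 0.829 CPM to 1.73, 2.04 and 2.15 CPM (1.32 ± 0.21, edgeR adjusted p = 0.0014). The list's 4 calls became 0 without WT library 2, 1 without WT library 1 or KO library 8 and 2 without KO library 9.

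The effector libraries gave the same direction for part of the genes. No library is shared with the naive comparison, but whether both cell types came from the same mice is not stated. Both comparisons also took their spread from the same fit. The overlap given here is therefore a description and no independent replication. Of the 167, 56 were called in KO effector against WT effector in the same direction (33.5%), where 2.25% of all 15709 genes outside the neighbourhood were called in effector cells with the sign they had in naive cells. In the effector comparison as a whole 503 genes were called, or 3.16%. A further 3 of the 167 were called in the opposite direction, Myo1f, Ccl5 and Plac8, all under 5 CPM in naive cells, and 108 were not called. The median of the 99 higher genes was 0.33 in naive and 0.20 in effector cells, and that of the 68 lower genes -0.36 and -0.25. Of higher genes with at least 5 CPM 32 of 82 were called the same way and none the opposite, and of those under 5 CPM 0 of 17 were called the same way.

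Among genes shared by both cell types were Bmf (-1.02 in naive and -0.92 in effector cells), Tmem267 (-0.96 and -1), Arrdc3 (-0.92 and -0.61), H3f3b (-0.37 and -0.33) and Tent5a (-0.36 and -0.37). Ifit1 (0.46 and 0.52), Oasl2 (0.48 and 0.65), Usp18 (0.46 and 0.67), Gbp10 (0.45 and 0.33) and Cish (0.43 and 0.32) rose in both. Gfi1 had values of 0.52 and 0.02, Selenop of -0.31 and -0.11 and Klf6 of -0.31 and -0.09, and none was called in effector cells. The difference between the 2 effects was not called for Gfi1 (edgeR adjusted p = 0.053), Selenop (0.33) or Klf6 (0.24). Over all genes the difference was called for 23, or 0.145%.

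**Figure D5:**
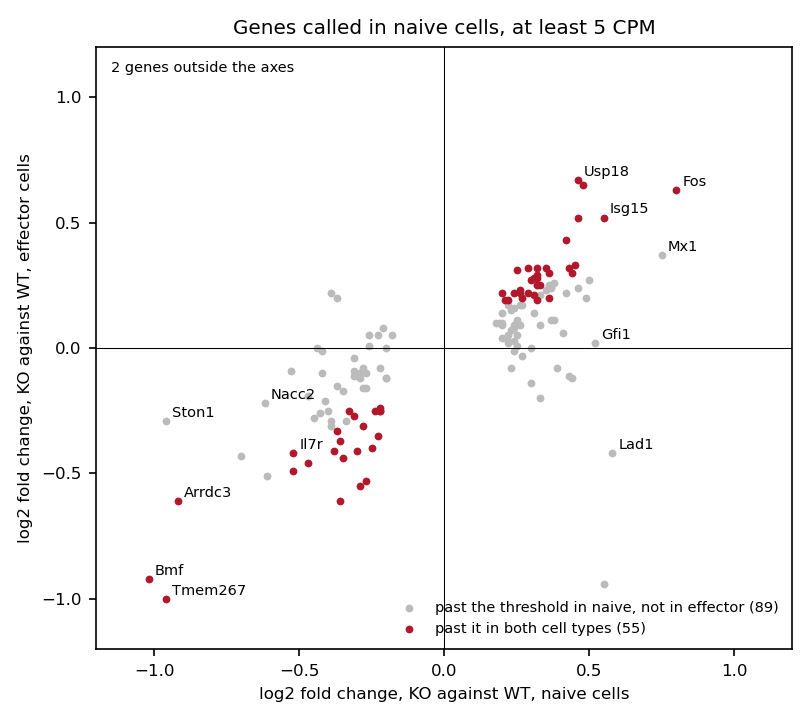
Log2 fold change of KO against WT in naive cells (x axis) and in effector cells (y axis) for the genes outside the Rinl neighbourhood called in naive cells with at least 5 CPM in the higher naive group. Red points were called in both cell types, and 2 genes lie outside the axes.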

How the data were processed

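Poly(A) RNA was made into stranded libraries, per the labels' protocols. The table the authors deposited holds raw counts per gene, per the file headers, and a second deposited table holds FPKM, which equalled those counts divided by 1 length per gene and 1 size factor per library for all 14726 genes compared, within a relative tolerance of 1e-06. The submitters' processing notes name mm10, GRCm38, DESeq2 1.30.0, Picard and STAR without roles. How reads were counted, with or without strand, and where reads shared by genes went are not given in the sources used. Columns show cell type and genotype, so libraries were mapped to groups by name. Of 55487 genes, 25372 had a count in a naive library.

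A robust quasi-likelihood model was fitted to the 12 libraries in edgeR 4.0.16 (R 4.3.3), 1 coefficient for each group, after TMM scaling and a filterByExpr filter that left 15905 genes; p-values were adjusted by Benjamini-Hochberg at 0.05. The biological coefficient of variation was 5.21%. Libraries of a group correlated at Pearson r of 0.9967 to 0.9979 across genes and differed beyond sampling noise, with a chi-square per gene of 2.25 to 4.84, so none was a copy of another; this does not separate technical from biological replicates. Alternatives used DESeq2 1.42.0 or its size factors, limma 3.58.1 (voom, or log2 of FPKM plus 1 or 0.1), no filter, at least 5 CPM, naive libraries only, thinned counts, each naive library left out, and windows of 1 and 20 Mb.

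Members and the 55 lists (858 symbols, 3 unmatched) were chosen with earlier results of these data known. Lists given by a name pattern left out Tradd, Ighmbp2, H13 and H19, which the patterns also caught. Named genes were, outside 5 Mb of Rinl and among called genes with non-overlapping libraries, leaving out unnamed models and receptor segments: the 15 largest rises and falls at 5 CPM or more, the 10 smallest p each way, up to 5 each way below 5 CPM, up to 5 called members per list, the highest markers, and Rinl, Cd44, Cd4 and Foxp3. A few of these genes are not reported here. Hbp1, Pim1 and Dhx40 (for their promoters), Plac8 (for its opposite call), Pisd-ps1, AC149090.1 and BC043934 (called under all alternatives) and single marker genes were named after their values were seen.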

Additional observations from a re-analysis of the deposited data

Results flagged for a closer look

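Of the 167 genes outside the Rinl neighbourhood, 8 had a different effect of Rinl loss in effector cells by edgeR's test of the difference. In naive KO cells 7 of them were higher and 1 was lower. The genes given here are a selection, which adds Fbxo27 and Fbxo17 near Rinl and leaves out the lower gene. The differences below are log2 fold changes in naive minus those in effector cells. Near Rinl they were 3.11 for Fbxo27 (3.39 in naive and 0.28 in effector cells, edgeR adjusted p = 1.2e-09) and 0.99 for Fbxo17 (2.89 and 1.89, edgeR adjusted p = 2.3e-05). For genes of effector and memory T cells they were 2.25 for Ccl5 (1.88 and -0.38), 2.15 for S100a6 (1.94 and -0.20), 0.56 for Hopx (0.44 and -0.12) and 0.44 for Il2rb (0.30 and -0.14), with edgeR adjusted p of 0.019, 0.019, 0.041 and 0.019. For Myo1f the difference was 1.59 (1.32 and -0.27, edgeR adjusted p = 7.4e-04) and for Lad1, an anchoring filament protein, 1.00 (0.58 and -0.42, edgeR adjusted p = 0.019). The cause of these differences was not tested.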

How the results depend on the processing

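Against 187 genes changed and 167 outside 5 Mb of Rinl (99 higher, 68 lower), no filter on low counts gave 501 and 470 (324 and 146), the naive libraries alone 528 and 498 (274 and 224), log2(FPKM + 1) 40 and 28 (15 and 13), and log2(FPKM + 0.1) 57 and 46 (30 and 16). DESeq2 gave 252 and 229 with 154 higher. Leaving out 1 naive library gave 66 to 135 genes, 52 to 117 outside 5 Mb, 29 to 77 higher and 23 to 40 lower; fewer samples enter these fits. The 56 genes called the same way in effector cells became 102 at an unadjusted p under 0.05 there. The cause of the other shifts was not tested. DESeq2's size factors in edgeR, limma-voom, a mean of at least 5 CPM, thinning and windows of 1 and 20 Mb kept these counts within 1.5 times. No named gene reversed its direction under any alternative, and 20 of 89 called named genes passed under all of them. No paired analysis was possible because the numbers in the columns are not those of the sample titles and carry no pairing across genotypes. Depth limits what can be said of genes under 1 CPM, where a few counts decide the fold change.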

Other observations

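Further called genes were chosen after their values were seen, and some belong to themes described above. Trat1 and Tec were not on the list of 34 proximal T cell receptor signalling genes, in which none fell. Irf1 and Irf7, transcription factors of the interferon response, had log2 fold changes of 0.25 ± 0.05 (edgeR adjusted p = 0.0052) and 0.31 ± 0.06 (0.013) in naive KO cells. The cold-inducible RNA-binding protein genes Rbm3 and Cirbp changed in opposite directions, Rbm3 from 214, 193 and 198 CPM in WT to 247, 227 and 236 CPM in KO (0.23 ± 0.05, edgeR adjusted p = 0.021) and Cirbp from 148, 149 and 145 CPM to 135, 121 and 118 CPM (-0.24 ± 0.05, edgeR adjusted p = 0.016). Trat1, an adaptor that stabilises the T cell receptor complex, stood at 140, 141 and 137 CPM in WT and at 112, 119 and 115 CPM in KO (-0.27 ± 0.05, edgeR adjusted p = 0.011), and its change in effector cells was -0.53 (edgeR adjusted p = 6.9e-06). Tec, a tyrosine kinase, had a value of -0.28 ± 0.07 (edgeR adjusted p = 0.035), and Atp1b1, a sodium pump subunit, one of -0.31 ± 0.07 (0.024).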
